A study of Mus musculus with 16 samples.

Results

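The heat shock genes and factors described here are 10 mouse genes: the HSP70 chaperones Hspa1a, Hspa1b, Hspa8 and Hspa5, the HSP90 chaperones Hsp90aa1, Hsp90ab1 and Hsp90b1, the cochaperone Dnajb1, and the transcription factors Hsf1 and Hsf2. They were found by their symbols among the 24063 genes of the count files, and all 10 were among the 11344 genes tested. Their RNA was read in 16 single two-cell embryos. Control embryos (f/wt, 8 libraries) came from superovulated females homozygous for a floxed Kdm1a allele, without Cre. Mutant embryos (Δm/wt, 8 libraries) came from superovulated females with the same floxed alleles and a Zp3-cre transgene, which is active in growing oocytes and removes the first exon of Kdm1a, the gene of the histone demethylase KDM1A (also called LSD1). The females were of a mixed C57BL/6J and 129 background, and the fathers in both groups were wild-type B6D2F1 males, the strain that the labels give for all embryos. A Δm/wt embryo therefore lacked the maternal supply and carried an intact paternal Kdm1a allele. Which embryos came from the same female was not stated in the sources used here, so the p-values below measure the spread between embryos only.

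Heat shock proteins are chaperones, which bind unfolded proteins and use ATP to help them fold. HSP70 proteins work with J-domain cochaperones such as DNAJB1, HSP90 proteins finish the folding of kinases and receptors, and HSPA5 and HSP90B1 do these tasks inside the endoplasmic reticulum. HSF1 and HSF2 bind heat shock elements, short inverted repeats in the promoters of chaperone genes. In the mouse, the inducible Hsp70 genes are known as some of the first genes to be transcribed from the embryonic genome, without any heat stress, and HSF1 deposited by the oocyte is known to be needed for the first cleavages.

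The start of the inducible HSP70 genes is shown first, because Hspa1a and Hspa1b are neighbouring copies on chromosome 17 that share most of their sequence and yet gave different values below. Sequences are RefSeq promoters in the GRCm38 (mm10) build, which cover 6 of the 10 genes, and the 250 bases before the start site are printed 5′ to 3′ on the strand of the gene. Capitals mark GAAGATTC, a match to GAANNTTC, which is a head-to-head pair of heat shock units with 2 bases between them. It lies 104 to 97 bases before both start sites.
Hspa1a, chr17:34972157-34972406, minus strand: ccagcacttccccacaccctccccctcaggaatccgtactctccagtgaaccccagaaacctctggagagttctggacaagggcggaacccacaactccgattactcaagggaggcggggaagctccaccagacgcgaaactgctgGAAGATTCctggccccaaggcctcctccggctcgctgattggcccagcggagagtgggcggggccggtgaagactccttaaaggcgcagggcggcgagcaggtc
Hspa1b, chr17:34959239-34959488, minus strand: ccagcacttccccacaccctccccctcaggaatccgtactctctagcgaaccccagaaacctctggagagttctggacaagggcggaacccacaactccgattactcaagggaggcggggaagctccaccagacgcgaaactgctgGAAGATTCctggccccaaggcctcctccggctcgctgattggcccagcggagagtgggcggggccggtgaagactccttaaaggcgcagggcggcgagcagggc
These stretches were identical at 247 of 250 bases. Of 32851 promoter windows of 300 bases (250 before and 50 after the start site), searched on both strands, 7.86% held GAANNTTC and 8.52% held TTCNNGAA, the tail-to-tail pair. A longer element of 3 alternating units was held by 0.603% and by none of the 6 genes.

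The genes of the endoplasmic reticulum chaperones are shown for the ER stress element, CCAAT and CCACG separated by 9 bases, which is known to be bound by factors of the unfolded protein response. Capitals mark its matches on either strand.
Hspa5, chr2:34771840-34772089, plus strand: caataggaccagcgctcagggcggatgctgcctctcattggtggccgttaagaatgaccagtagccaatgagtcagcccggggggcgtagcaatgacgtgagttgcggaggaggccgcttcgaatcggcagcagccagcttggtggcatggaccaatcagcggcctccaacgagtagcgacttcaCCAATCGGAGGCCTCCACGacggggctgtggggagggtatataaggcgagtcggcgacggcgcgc
Hsp90b1, chr10:86705445-86705694, minus strand: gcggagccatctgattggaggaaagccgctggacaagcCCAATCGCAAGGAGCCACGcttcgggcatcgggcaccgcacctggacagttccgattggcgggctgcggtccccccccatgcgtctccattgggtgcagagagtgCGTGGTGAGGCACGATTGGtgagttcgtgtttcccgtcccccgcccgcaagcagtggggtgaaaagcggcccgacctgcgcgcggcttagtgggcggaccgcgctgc
Hspa5 held 1 match, 65 to 47 bases before its start, and Hsp90b1 held 2, at 212 to 194 and 107 to 89 bases before its start. This element was found in 0.119% of all 32851 windows. Only exact matches were sought, so near copies of the element were not counted. A match is a description of the letters and was not tested as a site. The windows of Dnajb1 and Hsf2 held no match to any of these motifs.

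Total gene counts were 3212510 to 9337451 in the f/wt libraries and 4049168 to 14334244 in the Δm/wt libraries. The libraries f/wt 2 and 3 differed by a chi-square of 1.89 per gene, little more than sampling noise, whereas 55 further pairs of libraries from one group differed by 45.6 to 366. Their counts were added and treated as 1 sample, so that f/wt had 7 samples and Δm/wt 8. Kdm1a itself fell from 9.998 ± 6.00 to 1.24 ± 1.46 CPM (counts per 1000000 counts of a library), with a log2 fold change of -2.99, an SE of 1.01 and an edgeR adjusted p of 0.0211. The groups overlapped, since f/wt 6 had 8 counts of Kdm1a, fewer than Δm/wt 1 (26 counts), Δm/wt 5 (22 counts) and Δm/wt 3 (11 counts). Δm/wt 2 had 6 counts in a smaller library (4049168 counts in all, against 8022029 in f/wt 6). The method reads mostly 3′ ends and where the reads of Kdm1a lie was not examined, so this level is no check of the deletion of the first exon. All 10 markers of oocytes and two-cell embryos were above 1 CPM on average over the samples, as the labelled stage would have. Their sums did not overlap between the groups, at 780 to 2204 CPM in f/wt samples and 3589 to 13136 CPM in Δm/wt. Of 9 that were tested 5 rose and none fell, against 21.9% rises over all genes tested. Of 8 cumulus and granulosa markers, Fshr, Ptx3 and Foxl2 were at 0 in every library and the sums did not exceed 10.1 CPM. Of 8 blood and myeloid markers, Hbb-b1 was at 0, but the sum was 3.12 to 12.97 CPM in f/wt samples and 13.2 to 1953 CPM in Δm/wt, with more than 100 CPM in Δm/wt 4, 5, 6 and 7, and 6 of the 6 that were tested rose.

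Of the 10 heat shock genes, 5 fell in Δm/wt embryos, none rose and 5 did not pass the test. The genes that fell were Hspa1a, Hspa8 and Hspa5 of the HSP70 family, Hsp90aa1 and Hsf2. The test was edgeR's quasi-likelihood test after TMM scaling, with Benjamini-Hochberg adjustment over all 11344 genes and a threshold of 0.05. By the same test 22.8% of all genes fell, 21.9% rose and 44.7% passed in either direction. The median log2 fold change (Δm/wt over f/wt) of the 10 genes was -1.29, against 0.04 for all genes tested. Their summed level was 2458 ± 537 CPM in f/wt (SD, n = 7) and 1601 ± 312 CPM in Δm/wt (n = 8). In these whole embryos, fewer transcripts of a gene and more RNA of other genes cannot be told apart from CPM alone. The study used Hprt, Gapdh and Ppia, by their geometric mean, as references for RT-qPCR and not for its sequencing data. By RT-qPCR it found them at similar relative levels in control and mutant samples. When libraries were scaled instead to the summed counts of these genes, the median over all genes became 0.86, and with library totals it became -0.32. The split of all calls was then 3636 rises and 1446 falls, or 1892 rises and 3116 falls, against 2488 and 2583 with TMM. These references themselves differed between the groups with TMM scaling: Ppia fell (-1.71, edgeR adjusted p of 4.01e-04), Gapdh rose (1.27, edgeR adjusted p of 0.0257) and Hprt was at -1.01 without passing (edgeR adjusted p of 0.0954). With the reference genes, Hspa1a was the only one of the 10 genes to fall, and Hsp90ab1 and Hsf1 rose. In embryos 4 to 8 of each group, which had like read numbers in the study's table, 4 of the 10 genes (Hspa1a, Hspa8, Hsp90aa1 and Hspa5) fell, against 15.4% of the genes tested there. Without Δm/wt 4 to 7, the libraries with most myeloid transcripts, Hspa1a, Hspa8 and Hspa5 fell and Hsp90ab1 rose. That setting was chosen after seeing the data.

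**Figure D1:**
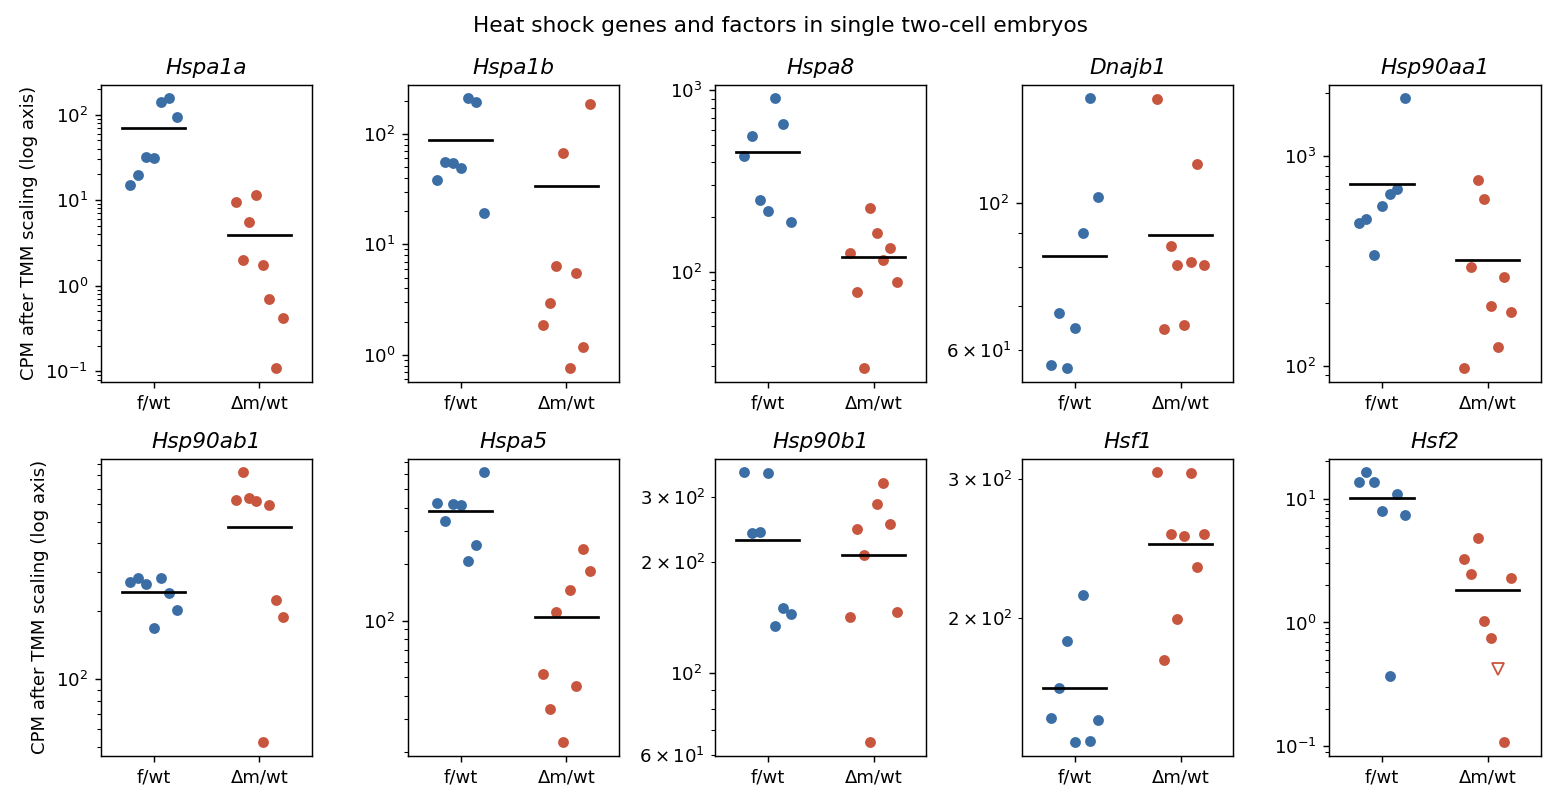
Level of each gene in each sample, in CPM after TMM scaling on a log axis that differs between panels, with 7 f/wt samples in blue, 8 Δm/wt samples in red and the group mean as a bar. The open triangle stands for Δm/wt 6, which had 0 counts of Hsf2 and is drawn at its limit of 3 counts (0.417 CPM). For Hspa1a the groups do not overlap, with f/wt at 15.02 CPM or above and Δm/wt at 11.5 CPM or below.

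Hspa1a, an HSP70 chaperone that cells make in large amounts on heat stress, showed the largest change of the 10 genes. Its lowest, median and highest levels were 15.02, 31.8 and 155 CPM in f/wt, and 0.108, 1.87 and 11.5 CPM in Δm/wt. Every Δm/wt embryo lay below every f/wt embryo, which was so for 9.04% of all genes tested. Among f/wt embryos 6, 7 and 8 were high (140, 155 and 93.0 CPM) and the others were at 31.8 CPM or below. Among Δm/wt embryos the lowest were Δm/wt 7 with 1 count and Δm/wt 8 with 2 counts. The f/wt mean of 69.4 ± 59.4 CPM (SD, n = 7) compares with 3.93 ± 4.41 CPM in Δm/wt (n = 8), so the gene fell 17.5-fold. The log2 fold change was -4.13, with an SE of 0.86 and an edgeR adjusted p of 6.76e-04. The gene passed the test in all 29 alternative settings, with log2 fold changes of -4.95 to -3.22. Relative to the median of all genes, its log2 fold change was -4.08 with reference genes and -4.10 with library totals. A change of scaling shifts all genes by a similar amount. Such relative values, here and for the genes below, therefore stay near the TMM value by construction and do not test the scaling.

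Hspa1b, the second inducible copy, which encodes nearly the same protein, did not pass. Its lowest, median and highest levels were 19.1, 54.3 and 209 CPM in f/wt, and 0.755, 4.27 and 187 CPM in Δm/wt. Of the Δm/wt embryos 6 were below the whole f/wt range, but Δm/wt 8 at 187 CPM and Δm/wt 4 at 66.4 CPM were above the f/wt median. The means were 88.4 ± 78.0 CPM (n = 7) and 34.0 ± 65.7 CPM (n = 8), with a log2 fold change of -1.38 (95% interval -3.38 to 0.63) and an edgeR adjusted p of 0.249. The call depended on one embryo and on the model. Without Δm/wt 8 the log2 fold change was -2.86 with an edgeR adjusted p of 0.0161, and with all embryos it was -3.43 by limma-voom (adjusted p of 0.00358) and -3.84 by edgeR with embryo number as a block (adjusted p of 0.0115), although the numbers did not pair the embryos.

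In Δm/wt 8 the copies went furthest apart. Hspa1b made up 99.8% of the reads of both copies there (895 against 2 counts), while in f/wt 1 to 7 it made up 55.4% to 73.9%. Its share was also above that range in Δm/wt 4 (85.2%, 520 against 90 counts). The same was so in Δm/wt 6 (88.9%, 40 against 5 counts) and Δm/wt 7 (91.7%, 11 against 1 count), on few reads. In the other direction, f/wt 8 had 17.0% of Hspa1b (147 against 716 counts) and Δm/wt 1 had 16.4% (12 against 61 counts). Below the range too were Δm/wt 5 (6 against 14 counts) and, narrowly, Δm/wt 3 (53.3%, 65 against 57 counts), while Δm/wt 2 lay within it. The copies share sequence, so their separate values are uncertain: of all 49-base windows (the read length) of the GENCODE transcripts, 59.1% of Hspa1a were found in Hspa1b, but of the last 1000 windows, at the 3′ end, which this method favours, 27.8% of Hspa1a occurred in any other gene. Hspa1a also overlaps an antisense gene, Gm20481, over 564 exonic bases (19.0%), and the strand setting of the counts was not given in the sources used here. Summed to 1 value, both copies were at 158 ± 131 CPM in f/wt samples and 37.9 ± 65.5 CPM in Δm/wt, so their log2 fold change of -2.06 ± 0.85 missed the threshold (edgeR adjusted p of 0.0544).

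**Figure D2:**
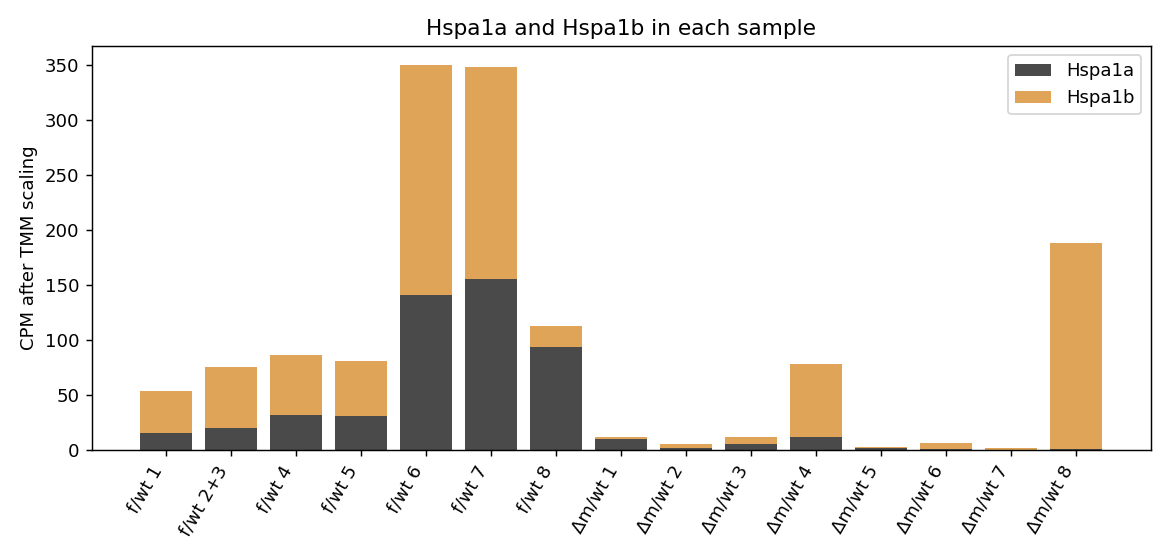
CPM of Hspa1a (dark) and Hspa1b (orange) stacked in each of the 7 f/wt and 8 Δm/wt samples, on a linear axis from 0. The f/wt bars hold both copies, whereas Δm/wt 8 is tall (187 CPM) and almost wholly Hspa1b, and Δm/wt 5 and 7 are close to 0.

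Hspa8 encodes the constitutive HSP70 (HSC70), which cells use without stress, for example to strip clathrin from vesicles. Its lowest, median and highest levels were 188, 432 and 901 CPM in f/wt, and 29.3, 121 and 225 CPM in Δm/wt. The ranges met in a narrow zone, with 7 of 8 Δm/wt embryos below every f/wt embryo and Δm/wt 4 above f/wt 5 and 8. From a mean of 456.9 ± 265 CPM in f/wt, Hspa8 fell 3.81-fold to 120 ± 58.8 CPM, with a log2 fold change of -1.93 and an SE of 0.42 (edgeR adjusted p of 0.00111). It missed the threshold in 1 of 29 settings, with reference genes, where its log2 fold change was -1.02 (edgeR adjusted p of 0.113) and -1.88 relative to the median of all genes. Of the last 1000 windows of its transcript, 93.2% also occur in other annotated genes, so few windows at its 3′ end are its own. Over the whole transcript the pseudogene Gm15459 shared the most windows.

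Dnajb1, the J-domain cochaperone that delivers substrates to HSP70 and speeds its ATP use, did not pass. Its levels were 56.3 to 144 CPM in f/wt samples and 64.5 to 143 CPM in Δm/wt, and the ranges overlapped almost fully. The means were 83.2 ± 31.7 and 89.5 ± 26.6 CPM, and the log2 fold change was 0.11 with a 95% interval of -0.63 to 0.84 (edgeR adjusted p of 0.823). Its sign turned in 5 of 29 settings, among them library totals (-0.23), so it has no direction here.

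Hsp90aa1 encodes the HSP90 form that stress can raise, and Hsp90ab1 the form made at a steady level in most cells. The levels of Hsp90aa1 were lowest, median and highest at 337, 576 and 1881 CPM in f/wt, and 97.3, 229 and 768 CPM in Δm/wt. Of the Δm/wt embryos 6 lay below the whole f/wt range, and the others, Δm/wt 3 (768 CPM) and Δm/wt 4 (624 CPM), lay above the f/wt median. The f/wt mean was raised by f/wt 8, whose 1881 CPM stood apart from the next f/wt value of 693 CPM. Mean levels were 732 ± 520 and 319 ± 245 CPM, and the log2 fold change of -1.20 ± 0.46 passed with an edgeR adjusted p of 0.0380. This call was lost in 9 of 29 settings, which were those without f/wt 8 (-0.93, edgeR adjusted p of 0.0766), without Δm/wt 1, 2, 5, 6, 7 or 8 in turn, without Δm/wt 4 to 7 (-1.18) and with reference genes (-0.43). Of the windows of its transcript 58.7% also occur in other genes, mostly the pseudogene Gm12346, but 6.5% of the last 1000.

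Hsp90ab1 did not pass with TMM scaling. Its lowest, median and highest levels were 169, 264 and 281 CPM in f/wt samples and 52.7, 606 and 827 CPM in Δm/wt. The f/wt embryos lay close together, while the Δm/wt embryos parted: 1, 2, 3, 4 and 6 were at 594 CPM or above, beyond every f/wt embryo, 7 and 8 were within the f/wt range, and 5 was below it at 52.7 CPM. The SD of log2 CPM was 0.28 across f/wt samples and 1.35 across Δm/wt embryos, against medians of 0.69 and 0.84 over genes of at least 100 CPM. The means were 244 ± 43.0 and 471 ± 275 CPM, with a log2 fold change of 0.95 (95% interval 0.06 to 1.84) and an edgeR adjusted p of 0.0741. It passed without Δm/wt 5 (1.13), the embryo with the highest sum of myeloid markers, without Δm/wt 8 (1.07), without Δm/wt 4 to 7 (1.15) and with reference genes (1.55). The part of the myeloid transcripts in these values was not tested.

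Hspa5 encodes BiP, the HSP70 of the endoplasmic reticulum and a sensor partner of the unfolded protein response. Its lowest, median and highest levels were 207 CPM, 412 CPM and 616 CPM in f/wt, and 22.6, 82.0 and 241 CPM in Δm/wt. All 8 Δm/wt embryos lay below the f/wt median, and 7 of them below every f/wt embryo, with Δm/wt 7 as the exception. From a mean of 381 ± 134 CPM in f/wt, Hspa5 fell 3.65-fold to 104 ± 79.7 CPM, with a log2 fold change of -1.87 and an SE of 0.46 (edgeR adjusted p of 0.00288). The call was lost in 1 of 29 settings, with reference genes, at -0.997 with an edgeR adjusted p of 0.143, or -1.86 relative to the median of all genes. None of its 49-base windows was shared with another gene.

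Hsp90b1 encodes GRP94, the HSP90 of the same compartment, which helps fold integrins and Toll-like receptors. Its lowest, median and highest levels were 134, 240.1 and 351 CPM in f/wt, and 65.0, 228 and 328 CPM in Δm/wt. The ranges overlapped and 4 of 8 Δm/wt embryos were above the f/wt median. The means were 229.8 ± 92.5 and 209.6 ± 86.7 CPM, and the log2 fold change was -0.13 with a 95% interval of -0.89 to 0.62 (edgeR adjusted p of 0.784). A pseudogene on the opposite strand, 1810014B01Rik, overlaps 10.3% of its exonic bases. The sign of its change turned in 3 of 29 settings, so it has no direction here either.

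HSF1 is the main activator of the heat shock response, and Hsf1 had lowest, median and highest levels of 139, 149 and 213 CPM in f/wt samples and 177, 254 and 306 CPM in Δm/wt. All 8 Δm/wt embryos lay above the f/wt median and 6 of them above every f/wt embryo. The means were 163 ± 27.8 and 248 ± 45.4 CPM, with a log2 fold change of 0.61 (95% interval 0.03 to 1.18), which did not pass (edgeR adjusted p of 0.0787). Both groups were narrow, with SDs of log2 CPM of 0.23 and 0.27. Hsf1 passed with reference genes (1.42), with DESeq2's Wald test (0.58) and with f/wt 2 and 3 kept apart (0.62).

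HSF2 is a factor of gametes and embryos that pairs with HSF1 on its targets. Hsf2 was at 7.40 to 16.3 CPM in 6 of the 7 f/wt samples, while f/wt 6 had 3 counts (0.372 CPM). The f/wt median was 10.8 CPM. In Δm/wt its median was 1.66 CPM and its highest level 4.78 CPM, and Δm/wt 6 had 0 counts, which allows up to 0.417 CPM by counting error alone. The f/wt library with 3 counts also had the lowest f/wt count of Kdm1a, 8 counts. Hsf2 fell from a mean of 10.04 ± 5.34 CPM to 1.84 ± 1.67 CPM, at a log2 fold change of -2.44 ± 0.99 with an edgeR adjusted p of 0.0487. All 8 Δm/wt embryos were below the f/wt median, but the call was at the threshold and was lost in 15 of 29 settings: with reference genes, without both f/wt 2 and 3, in embryos 4 to 8, without Δm/wt 4 to 7, without f/wt 1, 4, 5 or 7, and without Δm/wt 1, 2, 4, 5, 6, 7 or 8.

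**Figure D3:**
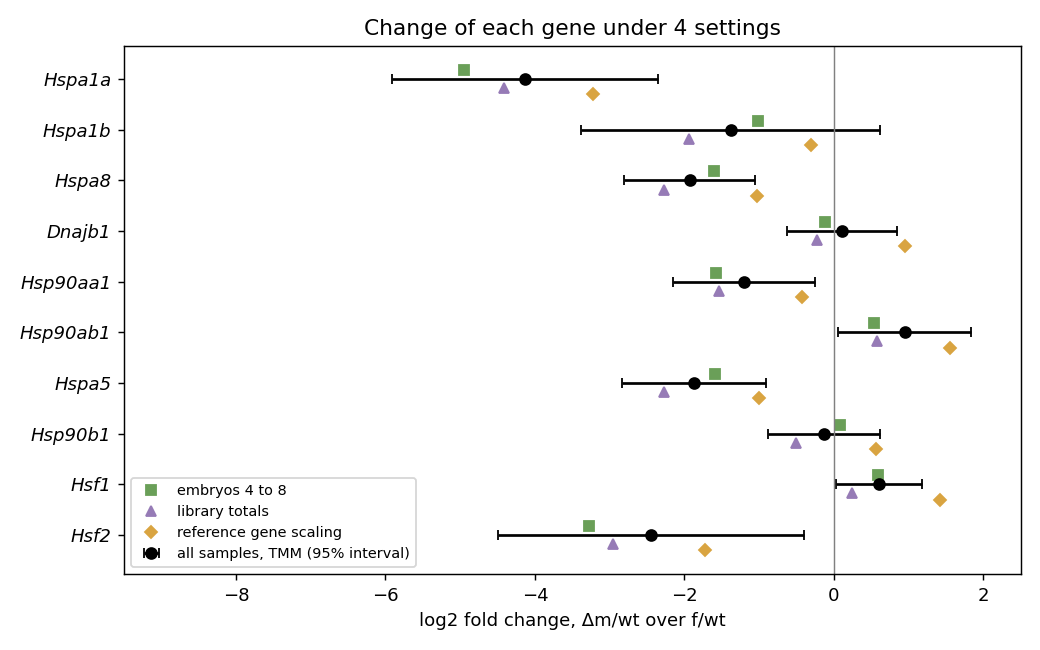
Log2 fold change (Δm/wt over f/wt) of each gene, with all samples and TMM scaling (black, with its 95% interval), in embryos 4 to 8 (green squares), with library totals (purple triangles) and with reference genes (yellow diamonds). Hspa1a is below -3 in each, and Dnajb1 and Hsp90b1 lie on both sides of 0.

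Ratios of 2 genes within a library do not depend on the scaling, so 4 were compared between the groups by an exact two-sided permutation test over all 6435 assignments of the samples to groups, with p-values adjusted over the 4. The ratio of Hsp90b1 to Hspa5, the chaperones of the endoplasmic reticulum, was 0.235 to 0.844 in f/wt, so that Hspa5 had more reads in every f/wt sample. In Δm/wt it was 0.798 to 7.24, and above 1 in all embryos but Δm/wt 8. The log2 ratio averaged -0.75 ± 0.63 in f/wt samples and 1.29 ± 1.15 in Δm/wt embryos, a difference of 2.04 (exact p of 9.32e-04, adjusted 0.00373). With each embryo left out in turn the difference was 1.82 to 2.27. Read numbers of different genes were not set to their lengths, so only the shift between groups, and not the level of a ratio, is compared.

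The ratio of Hsp90aa1 to Hsp90ab1 was lower in Δm/wt embryos. It ranged from 1.27 to 9.27 over f/wt samples and 0.156 to 3.67 in Δm/wt, where Δm/wt 5 was the highest. On the log2 scale its mean was 1.39 ± 0.93 for f/wt and -0.51 ± 1.52 for Δm/wt, a difference of -1.91 (exact p of 0.0112, adjusted 0.0149). The log2 ratio of Hsf2 to Hsf1 was also lower, at -4.51 ± 1.99 in f/wt and -7.93 ± 2.26 in Δm/wt, a difference of -3.42 (exact p of 0.00963, adjusted 0.0149). Its size rests on libraries with 0 to 3 counts of Hsf2: it was -2.63 with 5 counts added in place of 0.5, -4.16 without f/wt 6 and -2.82 without Δm/wt 6, and passed in each. The inducible copies over Hspa8 gave -1.70 ± 0.90 and -3.24 ± 2.57, a difference of -1.55 that did not pass (exact p of 0.158, adjusted 0.158). Without Δm/wt 8, the embryo with 895 counts of Hspa1b, that difference was -2.17 with an adjusted exact p of 0.0227, and without Δm/wt 4 to 7 it was -0.20 with an adjusted exact p of 0.812. In embryos 4 to 8 alone, with 5 in each group, the differences were -1.66, 1.92 and -4.06 for the ratios that had passed, and their adjusted exact p-values were 0.106, 0.0635 and 0.0635. Without Δm/wt 4 to 7 the difference in Hsf2 to Hsf1 was -1.75 with an adjusted exact p of 0.226.

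**Figure D4:**
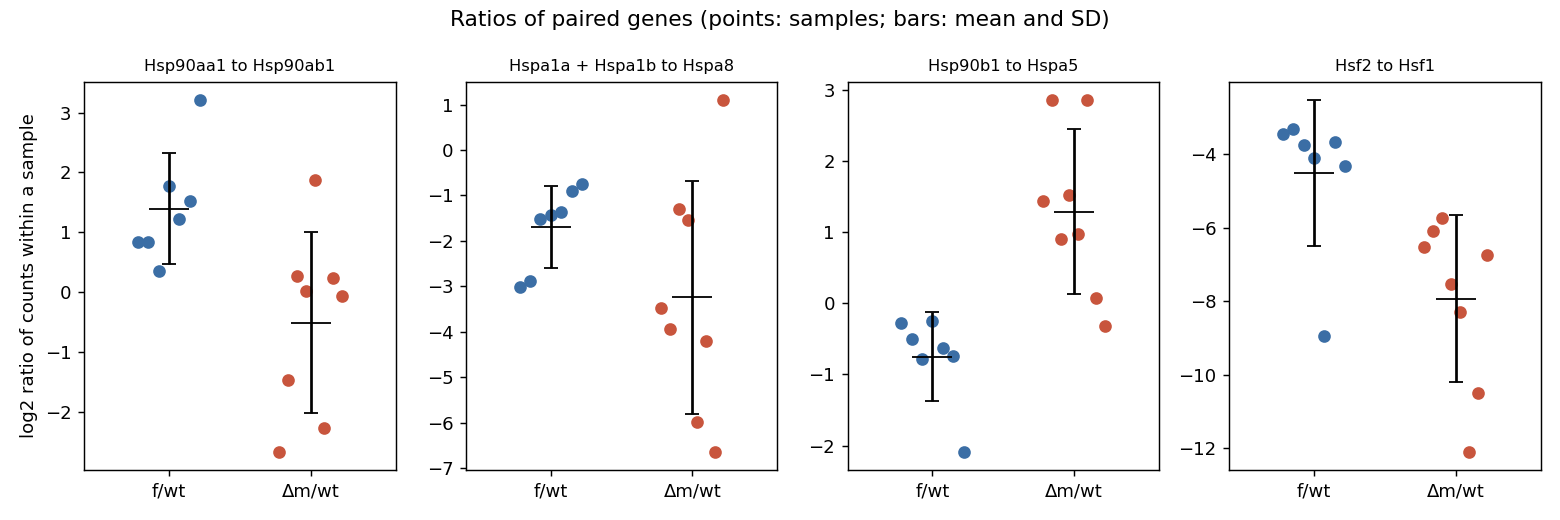
Log2 ratio of counts of 2 genes within each sample (0.5 counts added to each), for 7 f/wt samples (blue) and 8 Δm/wt samples (red), with mean and SD. The groups overlap in each panel, and the ratio of Hsp90b1 to Hspa5 has 7 of 8 Δm/wt embryos above 0 and no f/wt sample above 0.

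The control embryos differed among themselves in these genes. The samples f/wt 6 and 7 had the highest Hspa1a (140 and 155 CPM), Hspa1b (209 and 193 CPM) and Hspa8 (901 and 652 CPM), and Hspa5 was lowest in them (207 CPM and 253 CPM). In f/wt 8, Hsp90aa1 (1881 CPM) and Hspa5 (616 CPM) were highest while Hspa8 (188 CPM) and Hspa1b (19.1 CPM) were lowest. The highest f/wt level was 10.3 times the lowest for Hspa1a and 10.96 times for Hspa1b, against 1.53 times for Hsf1 and 1.66 times for Hsp90ab1. In Δm/wt embryos that range was 106 times for Hspa1a and 248 times for Hspa1b, and 1.73 times for Hsf1. The first 2 rest on 1 count of Hspa1a in Δm/wt 7 and 6 counts of Hspa1b in Δm/wt 5, so their size is uncertain. Of the chaperones the inducible pair had the widest range in both groups, Hsf2 reached 44.0 times in f/wt through its 3 counts in f/wt 6, and Hsf1 had the narrowest.

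The wider chaperone network was described by 9 lists of 110 genes, of which 91 were tested. In Δm/wt embryos 19 rose (20.9%), 27 fell (29.7%) and 45 did not pass, and their median log2 fold change was -0.22, against 21.9% rises, 22.8% falls and 0.04 for all genes. With reference genes 28 rose and 16 fell, with library totals 15 rose and 33 fell, and in embryos 4 to 8 alone 15 rose and 17 fell. All Δm/wt embryos lay below all f/wt samples for 9.04% of the genes tested and above them for 7.18%. The balance within a list moved with the scaling too, and is given below where it turned. The part of myeloid transcripts in these lists was not tested.

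Among 6 tested relatives of HSP70 and HSP110, 4 fell and 2 rose, with a median of -1.78. Hsph1, the HSP110 that serves HSP70 as a nucleotide exchange factor, fell from 236 ± 156 to 17.1 ± 8.66 CPM (-3.79 ± 0.53, edgeR adjusted p of 1.54e-05), and its relative Hspa4 fell from 292 ± 85.5 to 22.7 ± 11.998 CPM (-3.69 ± 0.61). The groups did not overlap for either gene. Hspa12a, a distant relative, rose from 10.7 ± 8.11 to 68.7 ± 28.8 CPM (2.68 ± 0.63).

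Of 15 J-domain cochaperones, 3 rose and 1 fell, with a median of 0.30. Dnajb4, a cytosolic relative of Dnajb1, rose from 21.5 ± 20.2 to 235 ± 220.4 CPM (3.45 ± 0.73, edgeR adjusted p of 7.58e-04), and Dnajc9 (2.56), a chaperone of histones, and Dnajc8 (1.71) rose too. Dnaja2 and Dnajc13, the most abundant members that did not pass, were at 0.23 and 0.62, and Dnajc13 passed as a rise with reference genes (1.52) and in embryos 4 to 8 (1.15). The median of the list was -0.0752 with library totals. Of 7 exchange factors, BAG proteins and other partners of HSP70, 4 fell and 2 rose, with a median of -1.63. Bag5 fell from 198 ± 98.5 to 3.52 ± 3.87 CPM (-5.81 ± 0.67, edgeR adjusted p of 2.24e-06), with no overlap of the groups. Bag1 (-2.57) and Bag6 (-1.62) fell as well. Neither passed with reference genes (-1.37 and -0.69), which left 2 falls and 2 rises in the list, and Bag6 did not pass in embryos 4 to 8 (edgeR adjusted p of 0.0967). In the fit of all samples Bag3, a known target of HSF1, was at -1.63 without passing (edgeR adjusted p of 0.146).

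Of 14 HSP90 cochaperones, 5 fell and 2 rose, with a median of -0.62. Fkbp4, the immunophilin of steroid receptor complexes, fell from 60.3 ± 29.5 to 2.95 ± 3.65 CPM (-4.34 ± 0.79, edgeR adjusted p of 2.13e-04), and Sugt1 fell from 303 ± 153 to 30.0 ± 9.39 CPM (-3.34 ± 0.38). The groups overlapped for neither gene. Ppid fell too (-2.89), while Nudc (0.77) and Cdc37l1 (0.80) did not pass. With reference genes both of the latter passed as rises (1.29 and 1.87) and the list turned to 5 rises and 4 falls with a median of 0.18, while library totals gave 1 rise, 6 falls and a median of -1.05. Of 10 genes listed as small heat shock proteins 3 were tested and 1 rose: Hspb1 went from 48.7 ± 40.2 to 368 ± 424 CPM (2.92 ± 0.71, edgeR adjusted p of 0.00249). Hspb6 (0.43) and Hspb11 (0.67) did not pass.

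In the endoplasmic reticulum, 6 of 18 chaperones and folding enzymes fell and 1 rose, with a median of -1.12. Manf, a factor secreted on ER stress, fell from 186 ± 43.4 to 11.3 ± 9.97 CPM (-4.03 ± 0.56, edgeR adjusted p of 1.54e-05). Dnajb9, a J-domain partner of BiP, fell from 1147 ± 604 to 113 ± 69.98 CPM (-3.34 ± 0.45), and Calr, the lectin chaperone calreticulin, from 321 ± 134 to 74.9 ± 27.9 CPM (-2.10 ± 0.36). The groups did not overlap for these 3 genes. Canx (0.63) and Creld2 (0.04) did not pass, but Canx passed as a rise with reference genes (1.41), where the list had 3 rises and 4 falls. Of 14 sensors and factors of the unfolded protein response, 4 fell and 2 rose, with a median of -0.44. Trib3, a pseudokinase raised by ER stress, fell from 50.5 ± 22.1 to 0.384 ± 0.372 CPM (-7.02 ± 0.74, edgeR adjusted p of 8.80e-07), and Ppp1r15b, which directs a phosphatase to eIF2α, fell from 144 ± 17.98 to 21.4 ± 20.3 CPM (-2.76 ± 0.53). Ern1, the gene of the sensor IRE1, rose from 10.02 ± 7.41 to 103 ± 27.4 CPM (3.35 ± 0.69), while Atf4 (-0.68) and Edem1 (0.02) did not pass. With library totals 6 of these genes fell, Atf4 among them (-1.09, edgeR adjusted p of 0.0125), and the median was -0.85. With reference genes 2 fell and 2 rose, with a median of 0.28 and Atf4 at 0.22, and in embryos 4 to 8 the median was 0.0578, so the list as a whole has no direction here.

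Mitochondrial chaperones were split, with 3 of 11 up and 3 down and a median of -0.22. Dnajc19, of the protein import motor, rose from 2.67 ± 3.97 to 72.2 ± 61.0 CPM (4.75 ± 0.88, edgeR adjusted p of 2.38e-04), whereas both subunits of a matrix protease fell, Clpp (-3.73) and Clpx (-3.21). Clpp did not pass in embryos 4 to 8 (-2.80, edgeR adjusted p of 0.0535). Hspa9 (0.27), the HSP70 of mitochondria, and Lonp1 (0.01) did not pass, but Hspa9 passed as a rise with reference genes (1.20). The list had 4 rises, 2 falls and a median of 0.64 with reference genes, and 2 rises, 4 falls and a median of -0.52 with library totals. Of 6 other heat shock factors and proteins that bind them 3 were tested, and all 3 rose. Hsf2bp, a meiotic protein that binds HSF2, rose from 59.8 ± 27.0 to 399 ± 118 CPM (2.74 ± 0.37, edgeR adjusted p of 1.24e-05), and Hsbp1, which binds HSF1 trimers, rose from 90.9 ± 37.3 to 472 ± 148 CPM (2.38 ± 0.35), with no overlap of the groups for either gene. Hsf5, a factor of the germ line, rose from 9.83 ± 9.09 to 53.2 ± 20.7 CPM (2.44 ± 0.75), but did not pass in embryos 4 to 8 (edgeR adjusted p of 0.0872).

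**Figure D5:**
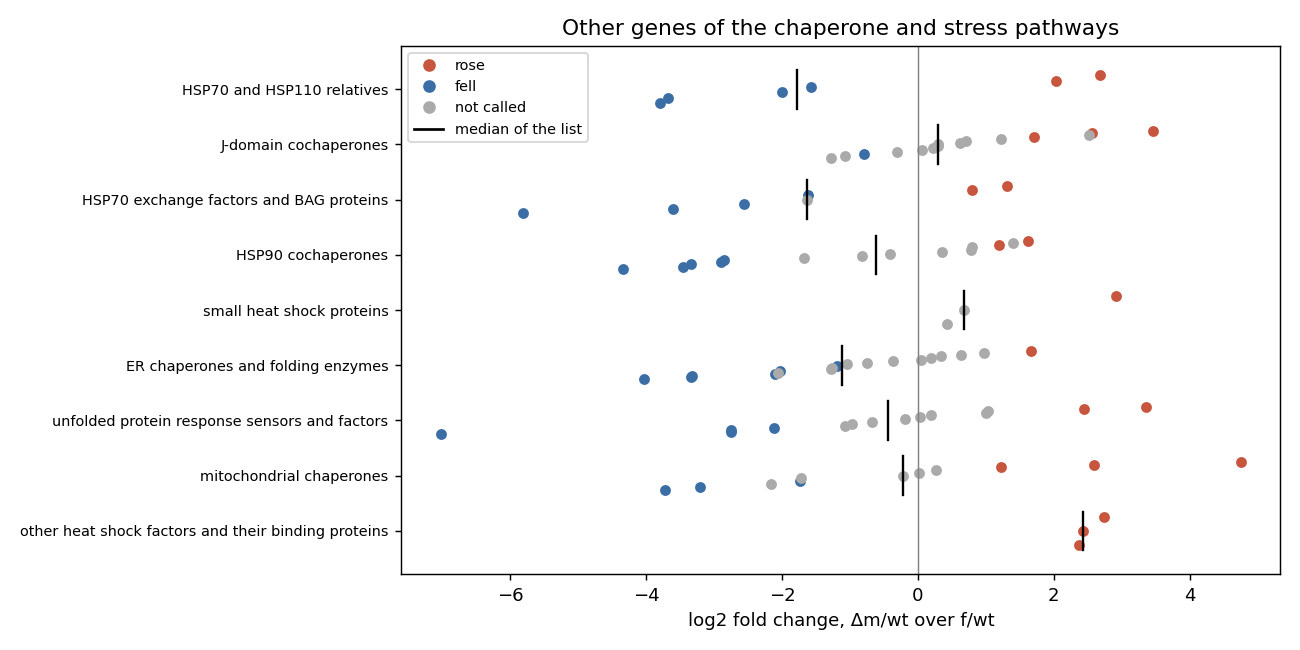
Log2 fold change (Δm/wt over f/wt) of the 91 tested genes of 9 chaperone and stress lists, 1 point a gene, coloured by whether it rose (red), fell (blue) or did not pass (grey), with the median of each list as a bar. The medians run from -1.78 for HSP70 and HSP110 relatives to 2.44 for the other heat shock factors.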

How the data were processed

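Single embryos were lysed and polyadenylated RNA was made into cDNA by an oligo-dT method for single cells, read mostly at 3′ ends. As the methods and processing notes state, the authors aligned single-end reads to mm10 with TopHat2 (2.0.6), kept unique best alignments and summed them per RefSeq gene with HTSeq (0.6.1). These deposited raw counts were analysed. They carry no molecular identifiers, so the limit given for 0 counts covers counting error only. Repeat counts were not used here.

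Following the study's filter, the 60% of detected genes with the largest total over all libraries were tested, with R (4.3.3) and edgeR (4.0.16), TMM scaling and quasi-likelihood tests. The libraries f/wt 2 and 3 were summed. Levels are CPM after TMM scaling. SDs of log2 CPM used a prior count of 2. Ratios used 0.5 added counts. Alternatives were run with DESeq2 (1.42.0) and limma-voom (limma 3.58.1), with other scalings, filters and samples. Tested on simulated data with 200 of 11344 genes changed, edgeR recovered 0 at 2-fold, 44 at 4-fold (1 false call) and 142 at 8-fold (4 false calls). In the data 44.7% of the genes passed, a far larger share, so the adjusted threshold was less strict there. The simulated recoveries therefore do not give the power of the test in these data.

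The 10 genes and the lists were chosen with earlier results of these data known. Of each list, the text names up to 3 passing genes (mean of 10 CPM or more, largest absolute log2 fold change first) and up to 2 others of the highest mean. Matches of 49-base windows and exon overlaps used GENCODE M21.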

Additional observations from a re-analysis of the deposited data

Results flagged for a closer look

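Single embryos that stood apart from their group were sought in 28 groups of values, the 10 genes and 4 ratios in each of f/wt and Δm/wt, by the gap of the highest or lowest sample to its neighbour over the whole range. The cut-offs pick out about 1 in 20 groups when values are normally distributed and groups are independent. CPM values are skewed and the ratios reuse the same genes, so the number that chance gives here is not known. There were 4 such groups.

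Hspa1b was at 187 CPM in Δm/wt 8, against 66.4 CPM in the next Δm/wt embryo and 0.755 CPM in the lowest. Hsp90aa1 was at 1881 CPM in f/wt 8, against 693 CPM in the next f/wt sample. The log2 ratio of Hsp90b1 to Hspa5 was -2.09 in f/wt 8, against -0.79 in the next f/wt sample. The log2 ratio of Hsf2 to Hsf1 was -8.94 in f/wt 6, against -4.31 in the next f/wt sample, and rests on 3 counts of Hsf2.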

How the results depend on the processing

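Hspa1a passed and was lower in all 29 alternatives, and Hspa8 and Hspa5 in 28 of 29. With reference genes, 1446 genes fell in all, 2 of the 10 heat shock genes rose and 1 fell. In embryos 4 to 8, 1465 of all genes rose and 1675 fell, in a test with fewer samples. Without Δm/wt 4 to 7, chosen after seeing the data, 1535 of all genes rose, 1 of the 10 rose and 3 fell. DESeq2's Wald test and keeping f/wt 2 and 3 apart each gave 1 rise, of Hsf1. With each embryo left out in turn, 0 to 1 of the 10 rose and 3 to 5 fell.

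Ratios that no longer passed were those of Hsp90aa1 to Hsp90ab1 (-1.66), Hsp90b1 to Hspa5 (1.92) and Hsf2 to Hsf1 (-4.06) in embryos 4 to 8, and Hsf2 to Hsf1 without Δm/wt 4 to 7 (-1.75, adjusted exact p of 0.226). The inducible copies over Hspa8 ranged from -2.17 to -1.06 with each embryo left out and passed without Δm/wt 8.

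Genes that did not pass changed sign. With library totals these were Dnajb1 (-0.23), Dnaja2 (-0.0886), Creld2 (-0.35), Edem1 (-0.32), Hspa9 (-0.15) and Lonp1 (-0.35), with reference genes Hsp90b1 (0.56) and Atf4 (0.22), without a filter Dnajb1 (-0.0466), and in embryos 4 to 8 Dnajb1 (-0.12), Hsp90b1 (0.0836) and Edem1 (-0.0770). With each embryo left out, Dnajb1 ranged from -0.0179 to 0.28 and Hsp90b1 from -0.39 to 0.00791. Of the 38 genes named from the lists, 32, 30 and 33 kept their direction and side of the threshold with library totals, with reference genes and in embryos 4 to 8. The causes were not tested.

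Embryo numbers did not pair the samples, since same-numbered embryos deviated together by correlations of -0.07 to 0.14. With embryo number as a replicate block and f/wt 2 and 3 kept apart, 2592 genes rose and 2805 fell. Hspa1b passed in that fit (-3.84, edgeR adjusted p of 0.0115), as it did with limma-voom (-3.43, adjusted p of 0.00358). The labels give no batch. The batch term used 3 sets taken from the read numbers in the study's table (embryos 1 and 2, embryo 3, and embryos 4 to 8), with f/wt 2 and 3 apart. Hsf2, at 0 to 237 counts per sample, is limited by depth.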
